A study of Mus musculus with 6 samples.

Results

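Broad autosomal H3K27ac peaks are long stretches of chromatin called as acetylated at lysine 27 of histone H3 in control mouse embryonic stem cells (mESCs). They were selected on width alone, as the peaks of the control list on chromosomes 1 to 19 whose end lay at least 10000 bp from their start. The rule gave 1596 peaks, or 7.09% (Wilson 95% interval 6.76 to 7.43%) of the 22518 autosomal peaks, out of 22973 peaks in the whole list. The other 20922 autosomal peaks, all under 10 kb, are called narrower peaks here and serve as the comparison.

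The series profiled H3K27ac by ChIP-seq with the antibody ab4729 in 6 libraries, 2 each from DMSO control cells and from cells given the transcription inhibitors NVP-2 or actinomycin D. The treated libraries were not analysed here. The study describes the libraries of each group as biological replicates. The cells were E14Tg2A mESCs that carry Rosa26-Cre and Oct4-IRES-Puro, so all of them derive from 1 line. They were grown without serum in N2B27 with LIF, the MEK inhibitor PD0325901 and the GSK3 inhibitor CT-99021, conditions that hold mESCs in a naive state. Chromatin of HEK293, a human kidney line, had been added as a spike-in. The peak list was made from both control libraries together and gives only the position of each peak. It holds no height or read count, so sequencing depth cannot be read from it, no spread between replicates exists and no test was run. Intervals cover counting error only, and wide peaks are more likely to touch any annotated feature through their length, so densities per Mb are given beside counts.

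Histone acetylation neutralises the positive charge of lysine, loosens the contact between histones and DNA and is read by bromodomain proteins. H3K27ac is deposited mainly by the related acetyltransferases CBP and p300, encoded by Crebbp and Ep300, and lies at active promoters and enhancers. Long acetylated stretches in mESCs are known from clusters of enhancers near genes that set cell identity, where OCT4 (encoded by Pou5f1), SOX2, NANOG and their partners bind. Marker genes of the labelled cell type and of others are set against all autosomal genes. Of those, 4.69% had their promoter in a broad peak, 38.8% in narrower peaks alone and 56.6% in none. Of 10 defining mESC genes, 8 had their promoter in a broad peak (Pou5f1, Sox2, Nanog, Zfp42, Dppa5a, Tdgf1, Fgf4 and Tfcp2l1). Utf1 had a narrower peak, and the Esrrb start used here had none. Longer lists of mESC genes, described further on, had lower shares, with 9 of 16 and 12 of 24 in broad peaks. None of 6 fibroblast genes (Col1a1, Col1a2, Col3a1, Thy1, Dcn and Lum) had a peak at the promoter. In the longer list of 13 fibroblast genes used further on, Pdgfrb lay in a broad peak and Vim and Twist1 in narrower ones. Of the primitive endoderm genes, Gata4 and Gata6 had narrower promoter peaks and Sox17 and Sox7 had none, and of the trophoblast genes Eomes had a narrower peak and Cdx2, Elf5 and Hand1 had none. Lists of 4 genes are too short to tell these counts from the shares of all genes.

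Broad peaks held DNA of very different composition, which the following stretches show. The first 5 are promoters that lie inside broad peaks: those of Kat6b and Tfcp2l1, from the widest peaks whose first protein-coding gene had a RefSeq entry, and those of the core pluripotency genes Pou5f1, Sox2 and Nanog. Each runs from 250 bases before to 50 bases after a RefSeq start in GRCm38.p6. Capitals mark 6 short motifs read on both strands, with adjoining or overlapping matches run together: GGGCGG (bound by SP and KLF factors and known as the GC box), CCAAT (the NF-Y box), TATAAA (known as the TATA box), ATGCAAAT (the octamer bound by OCT4), AAGGTCA (the site of ESRRB and other orphan receptors) and CACGTG (the E-box of MYC and related factors). A match is a run of letters and not a measured binding site, and a binding site spelled otherwise is not marked. Sfi1, Klf5 and Ncoa3, first in the other peaks among the 5 widest with a protein-coding promoter, were not matched.
Kat6b promoter, chr14:21499535-21499834 (+): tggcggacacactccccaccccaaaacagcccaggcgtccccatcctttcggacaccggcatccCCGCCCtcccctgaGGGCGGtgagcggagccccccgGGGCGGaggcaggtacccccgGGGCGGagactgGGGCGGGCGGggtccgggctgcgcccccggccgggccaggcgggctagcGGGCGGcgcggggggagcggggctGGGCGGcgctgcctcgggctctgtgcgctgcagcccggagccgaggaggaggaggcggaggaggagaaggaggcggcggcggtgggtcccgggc
Tfcp2l1 promoter, chr1:118627695-118627994 (+): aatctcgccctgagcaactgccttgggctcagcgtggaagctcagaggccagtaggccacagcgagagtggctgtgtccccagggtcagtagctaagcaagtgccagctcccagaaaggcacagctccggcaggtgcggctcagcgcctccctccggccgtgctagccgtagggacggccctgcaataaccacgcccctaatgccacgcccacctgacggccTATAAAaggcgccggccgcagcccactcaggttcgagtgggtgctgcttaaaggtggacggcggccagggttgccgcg
Pou5f1 promoter, chr17:35505782-35506081 (+): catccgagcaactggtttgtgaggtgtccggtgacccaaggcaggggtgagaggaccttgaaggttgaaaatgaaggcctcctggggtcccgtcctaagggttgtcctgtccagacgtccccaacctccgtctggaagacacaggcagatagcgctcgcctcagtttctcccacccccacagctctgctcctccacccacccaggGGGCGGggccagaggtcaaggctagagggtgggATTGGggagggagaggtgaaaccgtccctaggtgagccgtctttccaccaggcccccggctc
Sox2 promoter, chr3:34649745-34650044 (+): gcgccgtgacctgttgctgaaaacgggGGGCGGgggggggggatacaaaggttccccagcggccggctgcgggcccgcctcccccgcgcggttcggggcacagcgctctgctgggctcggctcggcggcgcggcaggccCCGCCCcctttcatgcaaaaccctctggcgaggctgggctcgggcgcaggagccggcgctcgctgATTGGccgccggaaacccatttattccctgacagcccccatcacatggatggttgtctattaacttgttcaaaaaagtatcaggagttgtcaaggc
Nanog promoter, chr6:122707239-122707538 (+): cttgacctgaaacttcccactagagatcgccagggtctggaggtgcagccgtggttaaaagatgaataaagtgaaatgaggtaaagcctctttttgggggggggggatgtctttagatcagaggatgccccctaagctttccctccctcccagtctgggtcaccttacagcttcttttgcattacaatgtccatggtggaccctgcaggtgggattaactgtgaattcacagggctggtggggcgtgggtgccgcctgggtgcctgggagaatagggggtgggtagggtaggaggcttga

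The Kat6b stretch was 79.3% G or C with 34 CpG dinucleotides and held 8 GC boxes and none of the other motifs. The Sox2 stretch held 27 CpG, 2 GC boxes and 1 CCAAT box at 66.3% GC, although its RefSeq start lay at -410 bp from the start used for the other measures. At Tfcp2l1 the same length held 21 CpG and 1 TATA box (65.3% GC), and at Pou5f1 it held 11 CpG, 1 GC box and 1 CCAAT box (62.7% GC). The Nanog stretch stood at 54.3% GC with 4 CpG and no exact match to the 6 motifs. Of 31396 autosomal RefSeq promoters, GGGCGG was present in 36.0%, CCAAT in 37.3%, TATAAA in 13.6%, CACGTG in 7.14%, AAGGTCA in 4.69% and ATGCAAAT in 1.75%. Among the 1515 RefSeq promoters whose start lay in a broad peak, the shares were 55.7%, 36.7%, 8.45%, 10.8%, 3.63% and 1.91% in the same order. The larger set takes in promoters without any peak, and no shares are given for promoters in narrower peaks. The differences are thus not shown to be particular to broad peaks. Median GC within 500 bp of the gene start was 47.6% at genes without a promoter peak, 58.2% in broad and 59.6% in narrower peaks.

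The next 3 stretches are the 300 bases at the midpoint of 3 of the 4 widest broad peaks without an annotated promoter, those over Macf1, Esrrb and Nmnat2. They are read from GRCm38 with the same 6 motifs in capitals.
Centre of the Macf1 peak, chr4:123639491-123639790 (+): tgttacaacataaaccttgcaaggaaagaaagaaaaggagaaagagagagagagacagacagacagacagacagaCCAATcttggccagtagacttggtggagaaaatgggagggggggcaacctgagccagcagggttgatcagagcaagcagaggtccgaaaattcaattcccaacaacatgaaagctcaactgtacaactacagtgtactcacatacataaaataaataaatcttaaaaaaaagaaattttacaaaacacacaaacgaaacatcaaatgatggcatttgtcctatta
Centre of the Esrrb peak, chr12:86493642-86493941 (+): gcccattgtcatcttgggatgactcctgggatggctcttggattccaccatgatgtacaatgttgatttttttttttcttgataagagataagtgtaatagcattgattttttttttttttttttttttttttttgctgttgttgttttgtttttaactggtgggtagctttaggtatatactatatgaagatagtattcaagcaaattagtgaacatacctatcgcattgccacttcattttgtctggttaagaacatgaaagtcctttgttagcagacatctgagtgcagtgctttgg
Centre of the Nmnat2 peak, chr1:153034215-153034514 (+): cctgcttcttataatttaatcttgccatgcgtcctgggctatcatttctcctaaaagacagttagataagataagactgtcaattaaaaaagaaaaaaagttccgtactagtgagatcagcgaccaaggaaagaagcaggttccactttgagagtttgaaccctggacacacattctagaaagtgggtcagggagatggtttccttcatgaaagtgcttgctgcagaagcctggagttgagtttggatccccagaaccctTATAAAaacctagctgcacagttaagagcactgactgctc

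These centres were 39.3%, 34.0% and 42.7% G or C and held 2, 1 and 3 CpG. The Macf1 centre held 1 CCAAT box, the Nmnat2 centre 1 TATA box and the Esrrb centre none of the 6 motifs. These 3 centres were poorer in G and C than the 5 promoters. They do not stand for all such peaks: the central 1 kb of the widest promoter-free peak, over Dym and not printed, was 50% G or C, against 39.9%, 43.6% and 45.8% for the same length in Macf1, Esrrb and Nmnat2.

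Broad peaks took up 28.3 Mb. They made up 33.3% of the acetylated autosomal length although they were 7.09% of the peaks, and covered 1.15% of the autosomal sequence. Their median width was 14274 bp, with quartiles at 11689 and 19748 bp, a 90th percentile of 29473 bp and a widest peak of 123797 bp. Most lay close to the limit: 446 peaks were 10 to 12 kb wide, 415 were 12 to 15 kb, 345 were 15 to 20 kb, 237 were 20 to 30 kb, 129 were 30 to 50 kb and 24 were 50 kb or wider. The authors had joined peaks within 2 kb of each other, and the smallest gap left between neighbouring autosomal peaks was 2001 bp, so a broad peak can be several peaks run together. The limit did not fall in a gap of the distribution. There were 22 peaks up to 100 bp above it and 27 up to 100 bp below it. The 3 narrowest members were an intergenic peak of 10003 bp on chromosome 3, a peak of 10025 bp in Sept9 and one of 10026 bp in Irak2, and the widest peaks left out lay in Lamc1 (9982 bp) and over the promoters of Kat7 (9982 bp) and Caprin1 (9981 bp).

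The widest peak covered 123.8 kb of chromosome 14 (chr14:21449395-21573191) around Kat6b, a histone acetyltransferase of the MYST family. It ran from 50.4 kb upstream to 73.4 kb downstream of the Kat6b start and took in 48.0% of the gene. The second, 80.6 kb on chromosome 11, contained all of Sfi1 (61.6 kb), a centriole protein gene, and the promoter of Eif4enif1. Sfi1 is known for near-identical copies in the mouse genome, and their part in the width of this peak was not tested. Next came a peak of 79.2 kb over Klf5, a Krüppel-like factor of naive mESCs. The Klf5 gene, 16.3 kb long, filled only 20.6% of this peak, and the acetylation went on to 71.8 kb downstream of its start. A peak of 77.7 kb on chromosome 2 held the promoters of Ncoa3, a nuclear receptor coactivator, and of the noncoding genes Platr29 and Gm11464. The fifth, 71.8 kb, enclosed the whole of Tfcp2l1, a transcription factor of the naive state whose gene spans 57.2 kb.

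The next 10 by width were split between promoters and gene interiors. Those with promoters covered a group of 6 genes on chromosome 3 (Gm37584, Mex3a, Rab25, Lamtor2, Ubqln4 and Ssr2, 70.2 kb), Irf2bpl with Gm26698 (69.1 kb), Jade1 (65.3 kb), the STAT3 target kinase gene Pim1 (60.9 kb), Trim71 with C130032M10Rik (59.1 kb) and the Polycomb partner Mtf2 (57.2 kb). Jade1 and Mtf2 were covered over 96.6% and 94.4% of their length and Trim71 over 93.5%. Pim1 lay near the downstream end, with 54.2 kb of its peak upstream of the start. The other 4 overlapped Dym (65.3 kb), Macf1 (64.3 kb), Esrrb (63.0 kb) and Nmnat2 (63.0 kb) and touched no promoter. All but the Esrrb peak lay wholly inside the gene. The Esrrb peak covered the 3′ part of the gene (37.0% of its length) and ran past its end, with 94.2% of the peak in the gene, 101.2 kb from the start of the longest isoform. Esrrb encodes an orphan receptor of the naive network, and when the starts of all its isoforms were counted it did have a promoter in a broad peak.

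Of the 1596 broad peaks, 874 (54.8%, 52.3 to 57.2%) overlapped at least 1 promoter, defined as 1 kb either side of the transcription start site (TSS) of a protein-coding or lincRNA gene. The share among narrower peaks was 41.0% (8584 of 20922). A TSS itself lay inside 53.4% of broad and 36.4% of narrower peaks. A further 29.2% of broad peaks lay in a gene body without touching a promoter and 16.04% were intergenic, against 33.7% and 25.3% of narrower peaks. Measured per length the order turned around. Broad peaks held 41.5 TSS per Mb and narrower peaks 157.4 TSS per Mb, a ratio of 0.264, and broad peaks had fewer TSS per Mb on 19 of 19 autosomes. The autosomes as a whole held 10.5 TSS per Mb, so that broad peaks were 3.94 times as dense in TSS as the autosomal sequence.

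**Figure D1:**
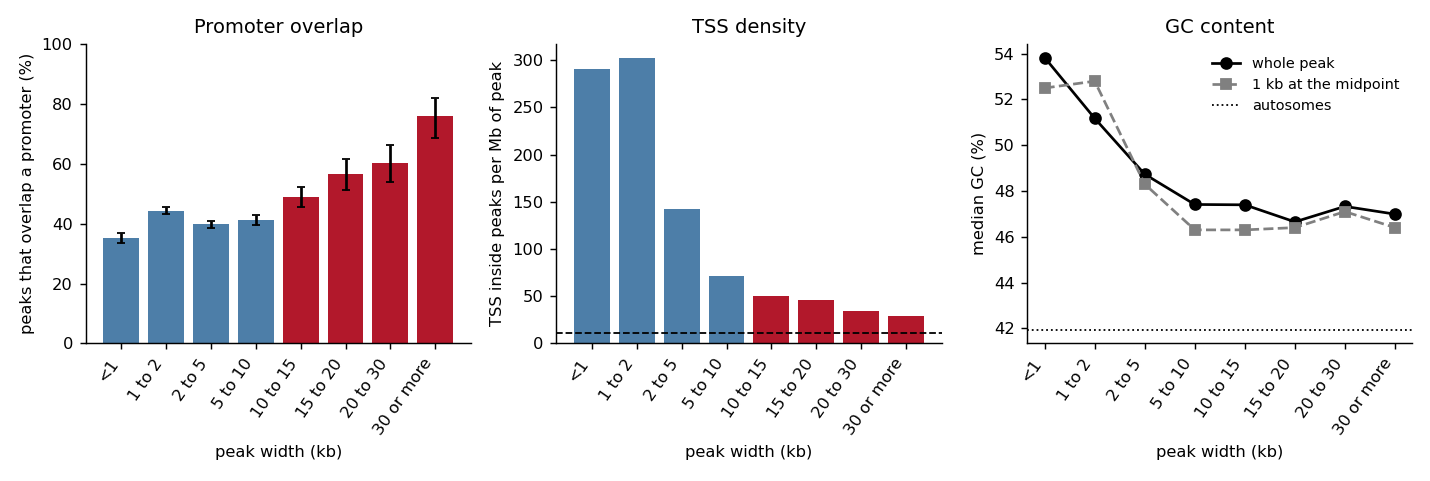
Autosomal peaks by width (kb on each x axis), with narrower peaks in blue and broad peaks in red. Left, percent of peaks that overlap a promoter with Wilson 95% intervals, 35.3% under 1 kb and 75.8% at 30 kb or more. Middle, TSS inside peaks per Mb of peak (bars) and over the autosomes (dashed line). Right, median GC of the whole peak and of the 1 kb at its midpoint, with the autosomal GC dotted.

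Promoter overlap rose with width among the members. It was 48.8% at 10 to 15 kb, 56.5% at 15 to 20 kb, 60.3% at 20 to 30 kb and 75.8% (68.5 to 81.9%) at 30 kb or more, where the length available for an overlap was also greatest. TSS per Mb fell over the same classes from 49.9 to 46.3, 34.6 and 29.3. Peaks of 5 to 10 kb, just under the limit, overlapped a promoter in 41.2% of cases and held 71.7 TSS per Mb, and promoter overlap showed no steady course with width among the narrower classes.

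The midpoint of a broad peak lay within 1 kb of a TSS in 6.64% of cases (106 of 1596), against 32.6% of narrower peaks. This share is tied to width, which chose the members, since a TSS anywhere in a wide peak is seldom within 1 kb of its midpoint. It was 43.3% at 1 to 2 kb, 29.2% at 2 to 5 kb, 9.75% at 5 to 10 kb and 6.85% at 10 to 15 kb. The median distance from midpoint to nearest TSS was 9243 bp in broad and 8022 bp in narrower peaks. Of the 722 broad peaks without a promoter, 22.3% ended within 10 kb of a TSS and 77.7% within 50 kb, with a median of 20933 bp from edge to TSS (23841 bp for 12338 narrower peaks).

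Around a TSS that was the only one in its peak, acetylation extended further into the gene than away from it. In 610 such broad peaks the median extent was 4885 bp upstream and 9708 bp downstream, and the TSS stood at a median of 31.7% of the width from the upstream edge. The downstream arm was the longer in 67.5% (412 of 610). At least 3 in 4 of the width lay downstream in 43.4% of these peaks and at least 3 in 4 upstream in 13.4%. The 6374 narrower peaks with 1 TSS had medians of 735 bp upstream and 1126 bp downstream and a longer downstream arm in 73.0%, so the lean toward the gene was not confined to broad peaks, and one-sided peaks (28.8% downstream, 6.45% upstream) made up a smaller share of them. Broad peaks covered a median of 39.6% of the transcript and the whole of it in 22.0% of cases, against 5.28% and 2.48% for narrower peaks. The transcripts were of like length in both classes, with medians of 24766 and 23770 bp. Both the extents and the coverage are therefore tied to width, which chose the members.

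**Figure D2:**
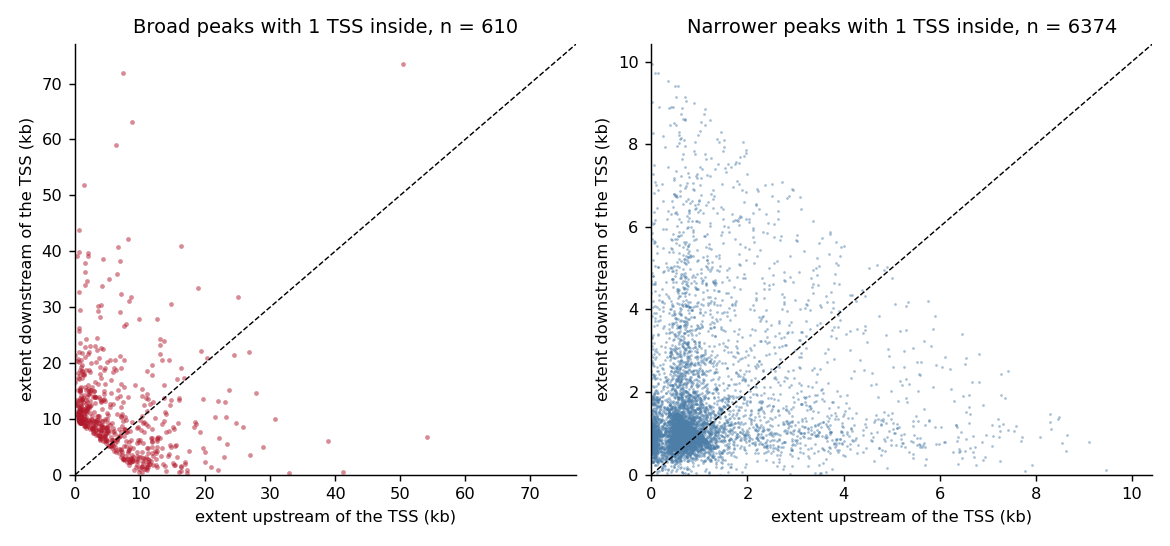
Extent of each peak upstream (x axis, kb) and downstream (y axis, kb) of its TSS, for peaks with 1 TSS inside. Each point is a peak and the dashed line marks equal extents; the panels have different scales. In broad peaks (left, n = 610) 67.5% of the points lie above the line, and the empty corner is set by the 10 kb limit.

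Among the core pluripotency genes the upstream arm was the longer one. Pou5f1 lay in a peak of 34.0 kb (chr17:35484495-35518536) that ran 21.5 kb upstream and 12.5 kb downstream of its start and also held the promoters of Tcf19 and Cchcr1. The Nanog peak of 36.0 kb (chr6:122684491-122720504) reached 23.0 kb upstream and 13.0 kb downstream, and that of Sox2, 19.7 kb (chr3:34637304-34656996), reached 13.1 and 6.6 kb. All 3 short genes were wholly inside their peaks. Klf5, Tfcp2l1 and Jade1 were the opposite case, with 71.8, 63.0 and 59.0 kb downstream and 7.4, 8.7 and 6.3 kb upstream.

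Some members covered several genes at a time. Exactly 1 promoter was overlapped by 625 broad peaks, 2 promoters by 191 and 3 or more by 58, which was 3.63% of broad and 0.296% of narrower peaks. The most TSS lay in peaks of the histone gene cluster on chromosome 13. A peak of 28.0 kb held 9 starts, among them those of Hist1h1c, Hist1h4a and Hist1h3a, and peaks of 19.2 and 19.1 kb held 6 and 5. The Rab25 peak on chromosome 3 and a peak of 17.3 kb on chromosome 12 with Moap1, Tmem251, Gon7 and Ubr7 held 6 each.

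In terms of length, 51.4% of the broad peak sequence was intronic, 35.0% intergenic, 7.53% within promoter windows and 6.12% exonic outside them. Narrower peaks were 39.3% intronic, 31.1% intergenic, 23.5% promoter and 6.06% exonic, and the autosomes 39.8%, 54.6%, 1.98% and 3.60%. Of the 466 broad peaks in a gene body without a promoter, 77.5% (73.5 to 81.0%) lay in a gene whose own promoter was marked by some H3K27ac peak, against 67.3% of 7048 narrower ones. Of the 256 intergenic broad peaks, 68.4% (62.4 to 73.7%) had a marked promoter as their nearest TSS, against 52.4% of 5290 narrower ones. Their median distance to that TSS was 18092 bp and 24179 bp for the narrower intergenic peaks.

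The 10 widest broad peaks without a promoter all overlapped a gene. After Dym, Macf1, Esrrb and Nmnat2 came peaks that overlapped, in part or whole, Aff1 (56.1 kb), which encodes a part of the super elongation complex, Tbl1xr1 (52.2 kb), Nlrp12 (49.5 kb), Sall1 (47.8 kb), Myo10 (47.6 kb) and Gcnt2 (46.5 kb). The Sall1 peak began 14.1 kb downstream of the start of this zinc finger gene and lay mostly beyond its 3′ end. Sall1 also had a separate broad peak of 12.7 kb over its promoter. The Nlrp12 peak (chr7:3188971-3238425) held the miR-290 to miR-295 cluster, the main microRNA family of mESCs, whose shared seed targets cell cycle inhibitors. The sequences used here gave no 3p strand for miR-292a, so the set below may not be complete. The listed members with a 3p seed beginning AAGUGC are shown with the seed, bases 2 to 8, in capitals.
miR-290a-3p: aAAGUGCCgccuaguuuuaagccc
miR-291a-3p: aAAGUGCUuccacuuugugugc
miR-291b-3p: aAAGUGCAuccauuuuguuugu
miR-294-3p: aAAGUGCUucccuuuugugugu
miR-295-3p: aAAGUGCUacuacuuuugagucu

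miR-291a-3p, miR-294-3p and miR-295-3p had the same seed, AAGUGCU, and miR-290a-3p and miR-291b-3p differed from it in the last base. All 8 genes of this cluster found in the annotation lay in the 49.5 kb peak. The other stem cell cluster, Mir302a to Mir302d with Mir367, lay in a narrower peak of 4.2 kb. Broad peaks together held 84 mature microRNAs of RefSeq from 54 genes, chromosome 18 left aside, and no share of all microRNAs is given.

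The promoters of 1215 of 25930 autosomal protein-coding and lincRNA genes lay in a broad peak, which was 4.69% of genes. Those of 10048 genes (38.8%) lay in narrower peaks alone and those of 14667 (56.6%) in none. Among protein-coding genes the share in a broad peak was 5.10% (1057 of 20722) and among lincRNA genes 3.03% (158 of 5208). Of the promoters that had any peak, however, 17.9% of lincRNA and 10.2% of protein-coding promoters had a broad one. Counting overlap anywhere in the gene, broad peaks touched 1661 genes (6.41%), 148 of them with 2 or more broad peaks and 26 with 3 or more. Wholly inside a broad peak lay 380 of these genes (1.47%), with a median length of 4359 bp, of which 296 were protein-coding and 84 lincRNA genes. The longest were Sfi1, Tfcp2l1, the hexokinase gene Hk2 (49.4 kb), C77080 (41.8 kb) and Mybl2 (30.0 kb). Over all annotated gene types, 868 genes were enclosed, including 94 microRNA and 62 snoRNA genes. No share of all genes of these types is given, and short genes are the more easily enclosed.

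The gene lists below stand against these shares of 4.69% in broad and 38.8% in narrower peaks. Of the 11263 promoters with any peak, 10.8% lay in a broad one. The lists describe where their members lay, and no test was run on them. Of the 3 core pluripotency factors, 3 lay in broad peaks. The naive transcription factors had 9 of 16 in broad peaks, led by Klf5 (79.2 kb), Tfcp2l1 (71.8 kb), Klf2 (50.8 kb) and Mybl2 (45.4 kb). Tbx3, Prdm14, Zfp42, Sall1 and Tfap2c followed with 10.6 to 34.9 kb. Of the other 7, Stat3 (6.3 kb), Zfp281 (3.7 kb) and Rarg (2.4 kb) had narrower promoter peaks, and Esrrb, Klf4, Nr5a2 and Sall4 had none at the start used. The distance from these 7 starts to the nearest broad peak varied widely. That peak lay 1.0 kb downstream of the Nr5a2 start (10.5 kb wide), 3.6 kb downstream of Rarg (22.8 kb wide), 49.9 kb downstream of Klf4 (34.1 kb wide) and 84.4 kb downstream of Esrrb (13.4 kb wide, beside the 63.0 kb peak). It lay 44.0 kb upstream of Zfp281, 70.2 kb upstream of Sall4 and 376.5 kb downstream of Stat3. With the starts of all isoforms, 12 of 16 had a promoter in a broad peak, Esrrb, Nr5a2 and Rarg being added.

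Other genes active in mESCs were in broad peaks in 12 of 24 cases. Among the widest were those of Jam2 (45.2 kb), the corepressor gene Trim28 (32.4 kb) and Dppa5a (23.1 kb). Dppa3, Lin28b and Fgf15 had no promoter peak, and 9 more, among them Utf1 and Lin28a, had narrower ones. The Platr transcripts, noncoding RNAs named for their association with pluripotency, had promoters in broad peaks in 10 of 22 cases. The widest were at Platr29 (77.7 kb), Platr19 (26.2 kb), Platr17 (23.7 kb) and Platr30 (19.4 kb). The Platr30 peak ended just short of the gene and counted only through the 1 kb promoter window. Broad peaks overlapped 9 of the 22 genes themselves. Glycolysis genes were there in 6 of 16 cases: the hexokinase gene Hk2 (53.2 kb), the glucose transporter gene Slc2a1 (17.6 kb), Eno1 (16.6 kb), Tpi1 (11.8 kb), Gapdh (11009 bp) and Pkm (10.6 kb). Slc2a3, the other glucose transporter of the list, had a narrower promoter peak of 1.5 kb and 3 broad peaks elsewhere over the gene, and counted as broad with all isoforms.

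Of the LIF and STAT3 genes, 3 of 11 lay in broad peaks, namely the STAT3 targets Pim1 (60.9 kb), Socs3 (19.7 kb) and Bcl3 (18.2 kb). Of the other targets in the list, Pim3 had a narrower peak (7.6 kb) and Klf4 none. The receptor and kinase genes Lifr, Il6st, Jak1 and Jak2 and Stat3 itself had narrower peaks of 0.5 to 7.7 kb. FGF and ERK genes had 3 of 18 (Fgf4, 22.7 kb; Etv5, 17.1 kb; Fgfr2, 16.3 kb), with Fgfr2 counted through a gene model of 2961 kb whose start lay in a peak shared with Ctbp2. Nodal and BMP genes had 3 of 21, the inhibitory Smad7 (39.3 kb), the co-receptor gene Tdgf1 (17.8 kb) and the receptor gene Acvr1b (11.1 kb). Wnt and beta-catenin genes had 0 of 17, which allows a share of up to 17.6%, with 14 in narrower peaks. Broad peaks did overlap the bodies of Gsk3b (1 peak of 14.4 kb) and Tcf7l1 (2 peaks, the wider 21.5 kb) in this list.

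Among chromatin regulators, acetyltransferases and coactivators had 4 of 14 in broad peaks (Kat6b, 123.8 kb; Ncoa3, 77.7 kb; Kat2b, 32.7 kb; Hat1, 15955 bp). Ep300 (5.4 kb) and Crebbp (1.9 kb), which encode the enzymes that deposit H3K27ac, had narrower promoter peaks. Histone deacetylases had 0 of 9, which allows up to 33.3%, with 5 in narrower peaks, and a broad peak of 18.1 kb overlapped the 3′ end of Hdac1. Bromodomain genes had 4 of 15, among them Brd1 (40.1 kb), Baz2a (23.8 kb) and Bptf (12.4 kb). Genes of DNA methylation and demethylation had 3 of 9, the 5-methylcytosine oxidases Tet2 (50.3 kb) and Tet1 (29.9 kb) and the maintenance cofactor Uhrf1 (12.2 kb). Polycomb genes had 4 of 16 (Mtf2, 57.2 kb; Eed, 13.1 kb; Jarid2, 11047 bp; Pcgf2, 10.8 kb), the other 12 being in narrower peaks. Lysine demethylases and methyltransferases had 3 of 22, namely Kdm5b (39.5 kb), Kdm1a (14.1 kb) and Kmt2e (10.2 kb).

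Housekeeping families had most of their promoters marked, chiefly by narrower peaks. Cytosolic ribosomal protein genes had 11 of 72 promoters in broad peaks and 59 in narrower ones, the widest at Rps15a (28.1 kb), Rpl3 (20.9 kb), Rps20 (19.6 kb) and Rpl13a (17.6 kb). Mitochondrial ribosomal protein genes had 0 of 78, which allows up to 3.85%, and 77 of the 78 lay in narrower peaks. Proteasome genes had 1 of 38 (Psmb3, in the 10.8 kb peak of Pcgf2) and 34 in narrower peaks. Zfp genes (23 of 384, 5.99%) and solute carriers (17 of 321, 5.30%) were near the share for all genes, Rab genes had 6 of 55, and olfactory and vomeronasal receptors had 0 of 1452, which allows up to 0.207%. The Zfp members were led by the imprinting factor gene Zfp57 (47.7 kb), and the solute carriers by Slc6a6 (39.5 kb).

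Of the genes in the lineage, trophoblast and primitive endoderm, and fibroblast lists, 1 in all had its promoter in a broad peak. These lists leave out Cdx1, Hoxc12 and Hoxc13, whose promoters also lay in broad peaks. The limits given for lists at 0, other than those of the mitochondrial ribosomal and receptor genes, take in the 4.69% of all genes. Lineage regulators had 0 of 26 (up to 11.5%), 5 with narrower peaks and 21 with none, and a broad peak of 14.99 kb overlapped Tfap2a away from its promoter. Trophoblast and primitive endoderm genes had 0 of 13 (up to 23.1%), 3 with narrower peaks. Of 13 fibroblast genes 1 had its promoter in a broad peak, Pdgfrb, and that peak of 21.5 kb also held the promoter of Cdx1. Among transcription factor families, the broad members were Sox2 and Sox15 (19.8 kb) of 18 Sox genes, Foxd3 (14.5 kb) of 41 forkhead genes, and Hoxc12 and Hoxc13, which shared a peak of 24.3 kb, of 39 Hox genes. Klf and Sp genes had 8 of 28, led by Klf5, Klf2, Sp1 (46.0 kb) and Klf9 (25.2 kb).

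**Figure D3:**
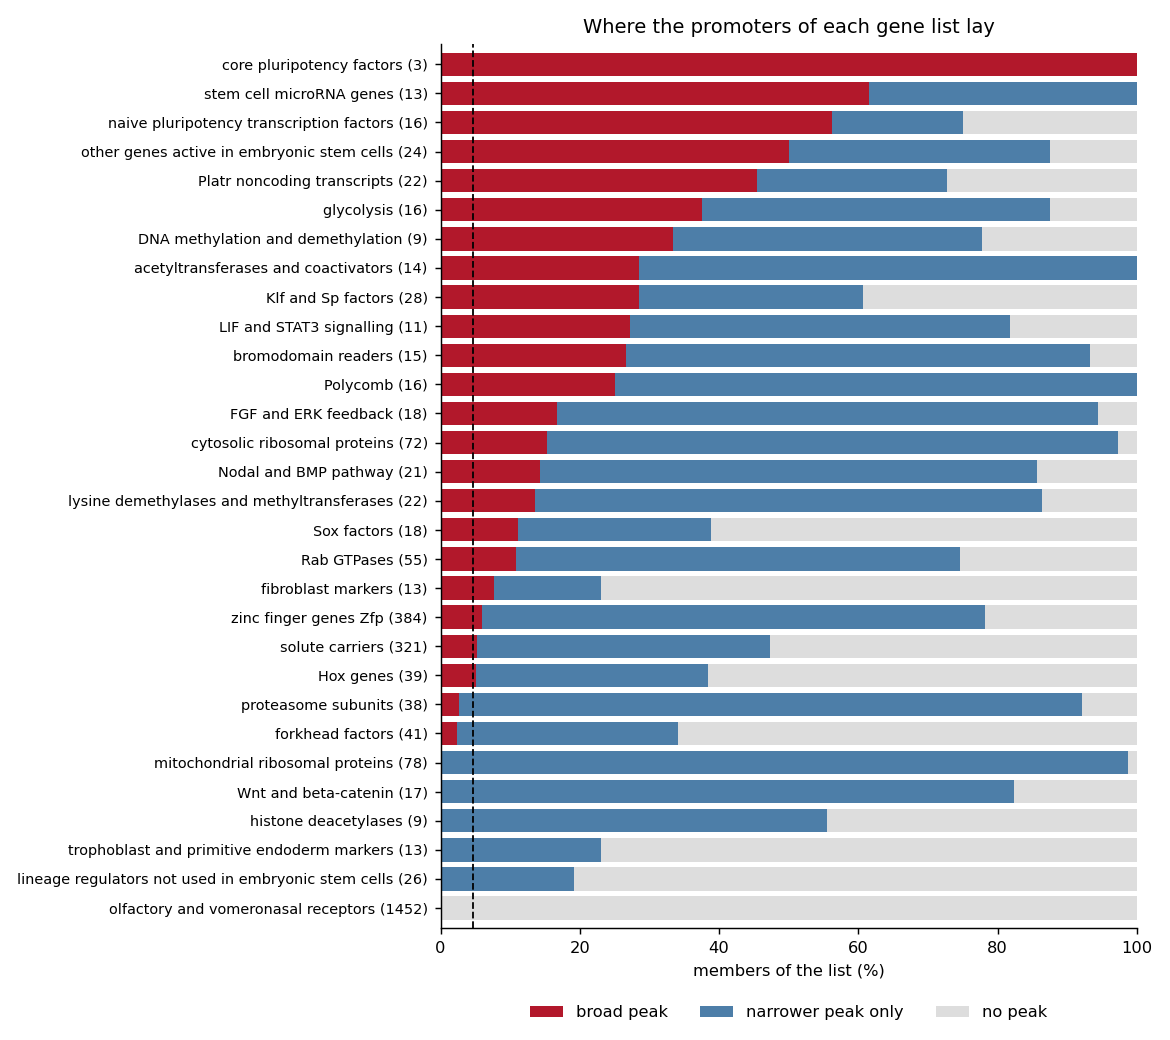
Percent of each gene list (x axis, number of genes in brackets) whose promoter lay in a broad peak (red), in narrower peaks only (blue) or in none (grey). For microRNA genes the position of the gene is used. The dashed line is the 4.69% of all autosomal genes with a promoter in a broad peak. This promoter share is not a reference for the microRNA genes. The 4 mESC lists at 50 to 100% include the microRNA list. The 8 of its 13 genes in a broad peak all lie in the same 49.5 kb peak. The mitochondrial ribosomal, Wnt, deacetylase, lineage, trophoblast and primitive endoderm, and receptor lists are at 0.

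Broad peaks were poorer in G and C than narrower peaks. The median over whole peaks was 47.2% in broad and 49.9% in narrower peaks, and the broad median was the lower one on 19 of 19 autosomes. Over all pairs of a broad and a narrower peak, the broad one was higher in 33.8%. In a window of equal size, the 1 kb at the midpoint, the medians were 46.6% and 50.1%. Both classes lay above the 41.9% of the autosomes. The difference was smaller away from promoters and larger in peaks that held one. Outside promoter windows the medians were 46.6% and 47.4%, in peaks without a promoter 46.4% and 47.7%, and in peaks with one 47.8% and 54.0%. Against peaks of 5 to 10 kb, in a window of 5 kb at the midpoint, broad peaks differed by -0.34 percentage points (46.9% and 47.3%), with a counting error of 0.312 on the difference.

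At the promoters themselves the classes lay closer together. Within 500 bp of TSSs inside peaks the median GC was 58.2% in broad (n = 1175) and 59.6% in narrower peaks (n = 8928), with 59.4% and 59.9% for protein-coding genes alone. Within 1 kb of the same TSSs the order was reversed, at 54.2% and 54.0%, a difference of 0.20 percentage points with a counting error of 0.506. CpG density was lower in broad peaks by the ratio of observed to expected CpG, whose median was 0.253 over whole broad peaks and 0.311 over narrower ones, and 0.707 and 0.758 within 500 bp of the TSS. Over whole peaks, the classes on either side of the limit lay close together, at 0.257 for 5 to 10 kb and 0.255 for 10 to 15 kb. Of 200 bp windows in broad peaks, 4.06% met the criteria of a CpG island (GC of at least 50% and a ratio of at least 0.6), against 13.0% in narrower peaks, while 70.1% of broad and 48.8% of narrower peaks held at least 1 such window. Soft-masked repeats made up a median of 26.2% of broad and 16.5% of narrower peaks and 32.6% of the autosomes, with 23.5% at 5 to 10 kb and 25.8% at 10 to 15 kb.

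**Figure D4:**
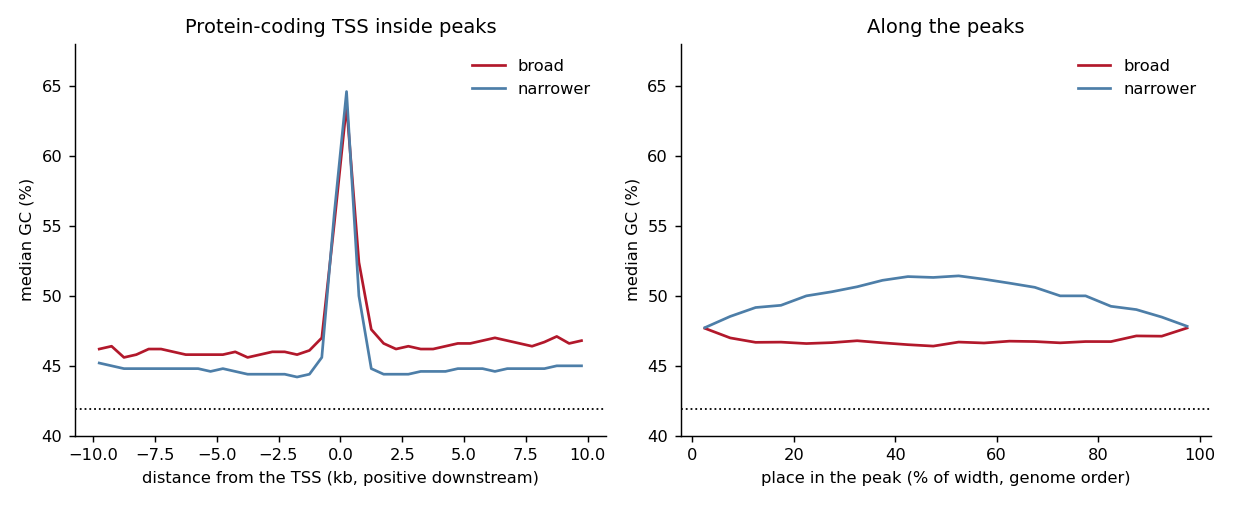
Median GC (y axis, percent; the axis starts above 0) in broad (red) and narrower (blue) peaks, with the autosomal 41.9% dotted. Left, 500 bp bins around protein-coding TSSs that lie inside peaks. Right, 20 equal bins along each peak from its lower to its higher coordinate. Along the peak, the broad median runs from 47.7% in the first bin to 46.4% in bin 10 and 47.7% in bin 20, and the narrower median rises toward the middle.

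The GC of single broad peaks ran from 38.3% to 59.5%. The highest was that of a peak of 10998 bp over Nol4l, followed by one of 15.5 kb with Cbarp, Atp5d and Midn (59.3%), and the lowest that of a peak of 10.6 kb over the noncoding gene Gm48913. These peaks were named after their values were seen. The motif GGGCGG occurred 0.399 times per kb of broad and 0.860 times per kb of narrower peak. For the other motifs the counts per kb lay closer together, at 1.32 and 1.35 for CCAAT, 0.687 and 0.611 for TATAAA, 0.251 and 0.244 for AAGGTCA, 0.164 and 0.184 for CACGTG and 0.0537 and 0.0565 for ATGCAAAT.

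Broad peaks had other peaks close to their edges. The median gap from edge to edge to the nearest other peak was 5819 bp (5452 to 6217 bp) in broad and 13423 bp in narrower peaks. The nearest peak was within 5 kb for 46.2% and 22.6% and within 10 kb for 69.0% and 41.8%. No other peak lay within 50 kb for 3.45% of broad and 17.5% of narrower peaks. Measured between midpoints the order was reversed, with medians of 18894 and 16904 bp, since the width of a broad peak then counts toward the distance. Within 50 kb of their edges, broad peaks had a mean of 3.55 and narrower peaks 2.45 other peaks. TSS density in the 100 kb on each side was 21.4 per Mb around broad and 19.4 per Mb around narrower peaks. Median GC in the 5 kb on each side was 45.4% and 44.7%.

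Broad peaks also lay near each other. Another broad peak was within 50 kb of 44.3% of broad and 18.2% of narrower peaks, and the nearest broad peak lay at a median of 73341 bp and 303826 bp. Joining broad peaks at most 50 kb apart gave 293 runs of 2 or more, which held 707 members, and left 889 alone. Of the 3 runs of 6, the one with the most covered length spanned 190.8 kb on chromosome 6 (chr6:122599134-122789898). It had 6 broad peaks over 62.4% of its length and held the promoters of Gdf3 and Nanog, both active in mESCs, and of Apobec1. The other runs of 6 lay over Arid5b on chromosome 10 and around Tmem131 on chromosome 1. In Arid5b, which encodes a DNA-binding partner of a histone demethylase, these 6 peaks covered 55.7% of the gene of 186.2 kb. There were 6 runs of 5, among them those with Fgr, Ahdc1 and Wasf2 on chromosome 4, Npcd, Cbx6 and Apobec3 on chromosome 15, and the Hist1 genes from Hist1h2ah to Hist1h2bj on chromosome 13. The genes of these runs were named after their values were seen.

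**Figure D5:**
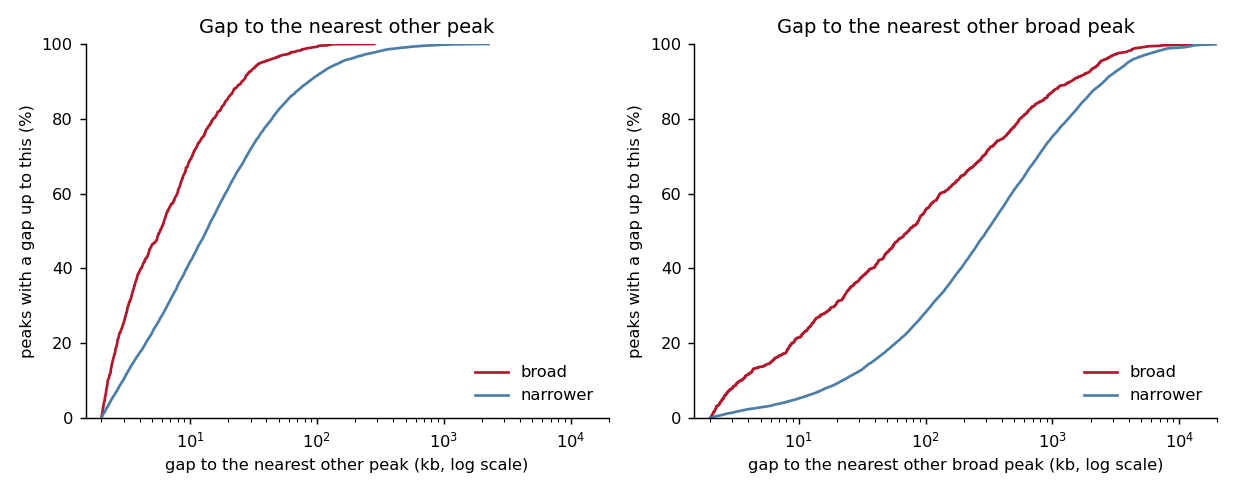
Cumulative percent of broad (red) and narrower (blue) peaks against the gap to the nearest other peak (left) and to the nearest other broad peak (right), in kb on a log scale. The curves start at the 2 kb within which peaks had been joined. The broad curve lies to the left in both panels, with medians of 5819 and 13423 bp (left) and 73341 and 303826 bp (right).

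The members were spread over every autosome. The share of a chromosome's peaks that were broad ran from 4.36% on chromosome 11 to 11.1% on chromosome 3, with a median of 7.24%. Per 10 Mb there were 4.98 (chromosome 13) to 7.84 (chromosome 7) broad peaks and per 100 genes 4.12 to 8.93. Chromosome X, which the rule leaves out, had 129 peaks of 10 kb or more among 454. Broad peaks stood early in the list, whose order the sources used here do not explain, with 584 of them (36.6%) in the first 1000 lines and a median line of 1578, against 12243 for narrower peaks.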

How the data were processed

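H3K27ac ChIP-seq libraries had been made from 6 mESC samples, 2 per group, and the list of the 2 control libraries was used. The authors trimmed reads with Cutadapt, aligned them with BWA to mm10 joined to a human genome, removed duplicates with Picard (version 2.9.1), filtered on mapping quality with SAMtools (version 1.4), called peaks with LanceOtron and joined peaks within 2 kb. Their methods also remove weak peaks and peaks away from ATAC-seq summits, so a gene without a peak is not shown to lack H3K27ac. The deposited values are peak positions in bp (unit other), with no count, height or score. Positions are printed from 1, and no peak ran past a chromosome end of GRCm38, the build that mm10 names.

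Genes came from GENCODE M21, an earlier release than the one in the study's methods. The TSS was that of the isoform with the longest span of each protein-coding or lincRNA gene, and an overlap of 1 bp counted. Wilson and order-statistic intervals (95%) cover counting error only, and a count of 0 was given a limit of 3 counts. Analyses were run in Python (version 3.11.15) with numpy (2.4.6) and scipy (1.17.1) and the functions were tested on simulated sequence. Samples were grouped by the treatment label. No test was made, since the list pools the replicates. The members and gene lists were chosen with earlier results of these data known. Named genes were those of the 15 widest peaks, of each list (up to 4 by width, or all if at most 5), of the 5 peaks with most TSS, of the 10 widest without a promoter and of the 3 peaks on either side of the limit. Any others were chosen after their values were seen. A few genes that this rule names are not reported here. Alternatives to windows, isoforms, gene types, limits, comparison peaks and distances are given in the closing section.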

Additional observations from a re-analysis of the deposited data

How the results depend on the processing

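Of 43 alternatives, 17 moved a value by less than its counting error, or a count by at most 1.5 times, 25 moved it further and 1 reversed it. The reversed one was promoter GC within 1 kb of the TSS, where broad minus narrower became 0.20 percentage points (counting error 0.506) in place of -1.40. Within 250 bp of the TSS it was -2.20, with protein-coding genes only -0.50, and at a limit of 15 kb -2.20. The number of broad peaks fell from 1596 to 735 at 15 kb and 390 at 20 kb. The share with a promoter, 54.8%, became 61.2% with all isoforms, 50% with protein-coding genes, 61.8% at 15 kb and 6.64% by the midpoint. The share of genes with a promoter in a broad peak, 4.69%, became 5.08% with all isoforms, 5.10% with protein-coding genes and 2.61% at 15 kb. The ratio of TSS per Mb, 0.264, became 0.304 with all isoforms and 0.247 with protein-coding genes. The GC difference over whole peaks, -2.73 percentage points, became -2.22 against peaks of 1 to 10 kb, -6.21 among peaks with a promoter and -0.81 with promoter windows left out. In the central 1 kb it was -3.50 and became -3.10 against peaks of 1 to 10 kb and again -3.10 at 15 kb, -10.1 among peaks with a promoter and -0.34 in 5 kb windows of peaks of at least 5 kb. The median gap of 5819 bp became 5148 bp at 15 kb, 18894 bp between midpoints and 73341 bp to broad neighbours. The intronic share, 51.4%, became 49.1% with protein-coding genes only.

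No paired analysis was possible because the peak list used here was made from both control replicates together, and files of single replicates were not analysed here. With no replicates, heights or read counts in this list, a width near 10 kb cannot be given an error, and whether a broad peak would be broad in each control library was not tested. Width also depends on the joining of peaks within 2 kb: with peaks within 4 kb joined first, 2099 would reach 10 kb.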
